A study of Mus musculus with 768 samples.

Results

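The genes described here are 51 genes that cells transcribe while they copy their DNA or divide, 23 of S phase and 28 of G2 and mitosis, taken as a fixed list from the 32679 genes of the count table. All 51 had a row. They were read in 659 of the 768 wells of a single-cell experiment on the mouse dentate gyrus, namely the wells with at least 50000 counts and 1000 to 6000 genes with a count. The cells came from 8 male Nestin:GFP mice, a reporter strain in which the promoter of the stem cell gene Nes drives a fluorescent protein, treated from 2 months of age. The 4 control mice (1, 3, 5 and 7) received a negative control oligonucleotide, and the 4 mimic mice (2, 4, 6 and 8) a synthetic mimic of the microRNA miR-132. Injections of 150 pmol, in 3 µl with the transfection reagent lipofectamine 2000, were weekly for 5 weeks in both groups. All mice carried the reporter and received the lipid, and no untreated mouse is among the groups. Mice 1 to 4 carry the date 17 April 2018 and mice 5 to 8 the date 19 April 2018 in the labels, which do not say what step the date belongs to, with 2 mice of each treatment per date. The labels give 94 sorted cells per mouse, and no cluster of the wells took the name of radial glia-like stem cells. The reporter itself was not analysed here.

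S phase genes encode the machinery that opens and copies DNA: the MCM proteins form the helicase, Pcna the sliding clamp of the polymerases, and Rrm1, Rrm2 and Tyms make DNA precursors. G2/M genes encode the proteins that condense and separate chromosomes, among them the kinase Cdk1 with its cyclins, topoisomerase Top2a, centromere and spindle proteins, and Ube2c and Cdc20, which act in the destruction of cyclins. Several S phase proteins also serve DNA repair and are made at a low level outside S phase, whereas most G2/M transcripts are nearly restricted to dividing cells. In the adult dentate gyrus, radial glia-like stem cells divide rarely, their intermediate progenitors divide often, and the neuroblasts that follow leave the cell cycle. Oligodendrocyte precursors also divide in the adult brain, and mature oligodendrocytes do not.

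The 659 wells held a median of 644544 counts (range 61342 to 1116183) and 2728 genes (1005 to 5015). A further 16 wells, 2 of each mouse, held 10045 to 11362 genes and are treated apart below as many-gene wells, and 93 wells were shallower or poorer and were not used. Levels are CPM, the gene's share of the well's counts scaled to a common well total, and a gene was called detected in a well at 10 CPM or more. Smart-seq2 reads cover whole transcripts and carry no molecular identifiers, so a CPM grows with transcript length and intervals given here cover counting error only. Among 18 nearly empty wells with under 5000 counts, 8 held a count of any member, 26 counts in all. Each well belongs to a mouse by the sample descriptions. The sample titles give another assignment, which agrees on the mouse for 12.5% of the 768 wells and on the treatment for 50%, and results that differ under it are given with it. The mouse was the replicate throughout.

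Few wells held several members, and most that did were neuroblast-like. No member was detected in 24.3% of the 659 wells, 1 member in 35.1%, 2 in 20.9%, and 3 or 4 in 16.2%. From 5 to 9 members were detected in 13 wells, 1.97% of all wells (exact 95% binomial interval 1.05 to 3.35%). At least 10 were detected in 10 wells, 1.52% (0.730 to 2.77%). No well had 8 or 9 members, and the 10 wells held 10 to 41 members each. No well had 13 to 17 or 22 to 29 members either, and whether the gap below 10 marks a separate group was not tested. Taken with 5 as the limit, 23 of 659 wells had several members, 3.49% (2.23 to 5.19%). The 10 wells had a median of 562906 counts and 3898 genes, the 636 wells with fewer than 5 members 645600 counts and 2702 genes. The 25 neuroblast-like wells with fewer than 5 members had 517732 counts and 3075 genes, and the part of the larger number of genes in the member count was not tested.

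Wells were clustered without the 51 members and without other cell cycle genes, and clusters were named by marker genes. Of the 10 wells with 10 or more members, 9 were neuroblast-like and 1 was oligodendrocyte precursor-like. Of the 13 wells with 5 to 9, 8 were oligodendrocyte-like, 4 neuroblast-like and 1 endothelial-like. Thus 13 of the 38 neuroblast-like wells had several members, 34.2% (19.6 to 51.4%). Among the other classes the share was 2.66% of the oligodendrocyte-like wells (8 wells, 1.15 to 5.17%), 0.935% of the endothelial-like wells (1 well), 1 of 18 oligodendrocyte precursor-like wells, and none of 95 astrocyte-like wells, which allows a share of up to 3.16% by the limit of 3 wells that a count of 0 allows. No pericyte-like (72), fibroblast-like (16) or smooth muscle-like (12) well had several members. Mouse by mouse, the share in neuroblast-like wells was above that in all other wells in 6 of 8 mice, equal at 0 in control mouse 5, and below it in mimic mouse 6. The mean share was 35.6% ± 31.2 (SD, n = 8 mice) against 1.61% ± 1.57, and an exact two-sided permutation test that flips the sign of each mouse's difference gave p = 0.0312. That test was chosen after the classes were seen, and the neuroblast-like shares rest on 2 to 9 wells per mouse.

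**Figure D1:**
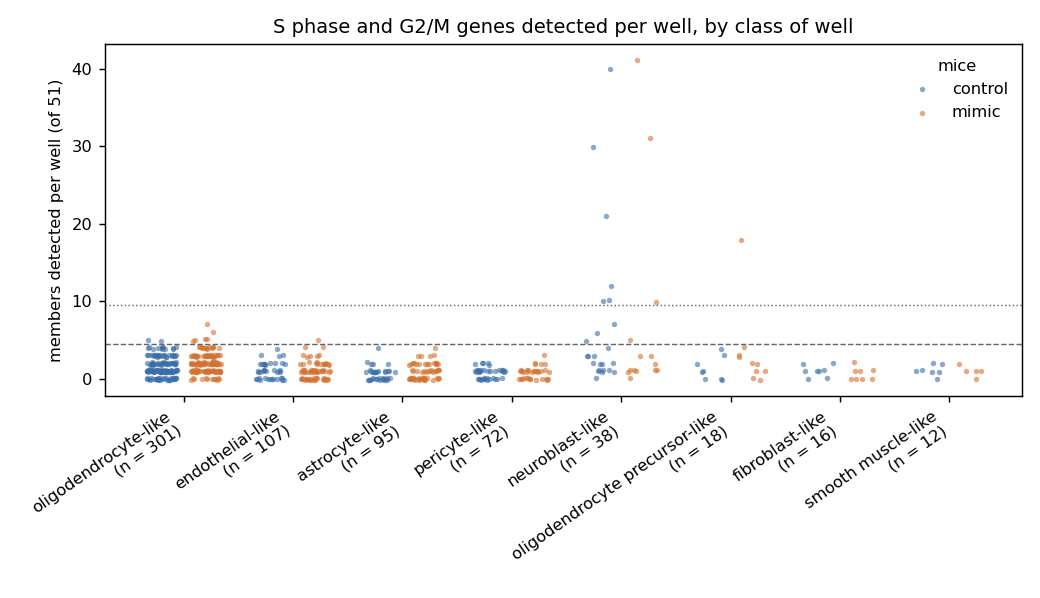
Members detected per well at 10 CPM or more (vertical axis, of 51) for the 659 wells, by class of well, with control mice in blue and mimic mice in orange. The dashed line marks 5 members and the dotted line 10; 9 of the 10 wells above the dotted line are neuroblast-like.

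The 10 wells differed in phase. A well of control mouse 1 held 19 of the 23 S phase genes and 2 of the 28 G2/M genes, and its summed S phase level was 12437 CPM against 255.9 CPM for G2/M. A further 3 wells were of this S phase kind: mimic mouse 4 with 10 S phase and 0 G2/M members, control mouse 1 with 9 and 1, and control mouse 3 with 8 and 2. At the other end, a well of mimic mouse 2 held 5 S phase and 26 G2/M members (4705 against 16719 CPM). The oligodendrocyte precursor-like well of mimic mouse 8 held 2 and 16 (1154 against 20266 CPM), and a neuroblast-like well of control mouse 1 held 2 and 10 (368.05 against 5000.5 CPM). Both sets were present together in 3 wells, with 20 S phase and 21 G2/M members in mimic mouse 2, 23 and 17 in control mouse 3, and 14 and 16 in another well of control mouse 3. All 23 S phase genes were thus detected in a cell of a control mouse, and no well held all 28 G2/M genes. The kinds of well were named by these members, so levels of members by kind describe the wells and carry no test.

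**Figure D2:**
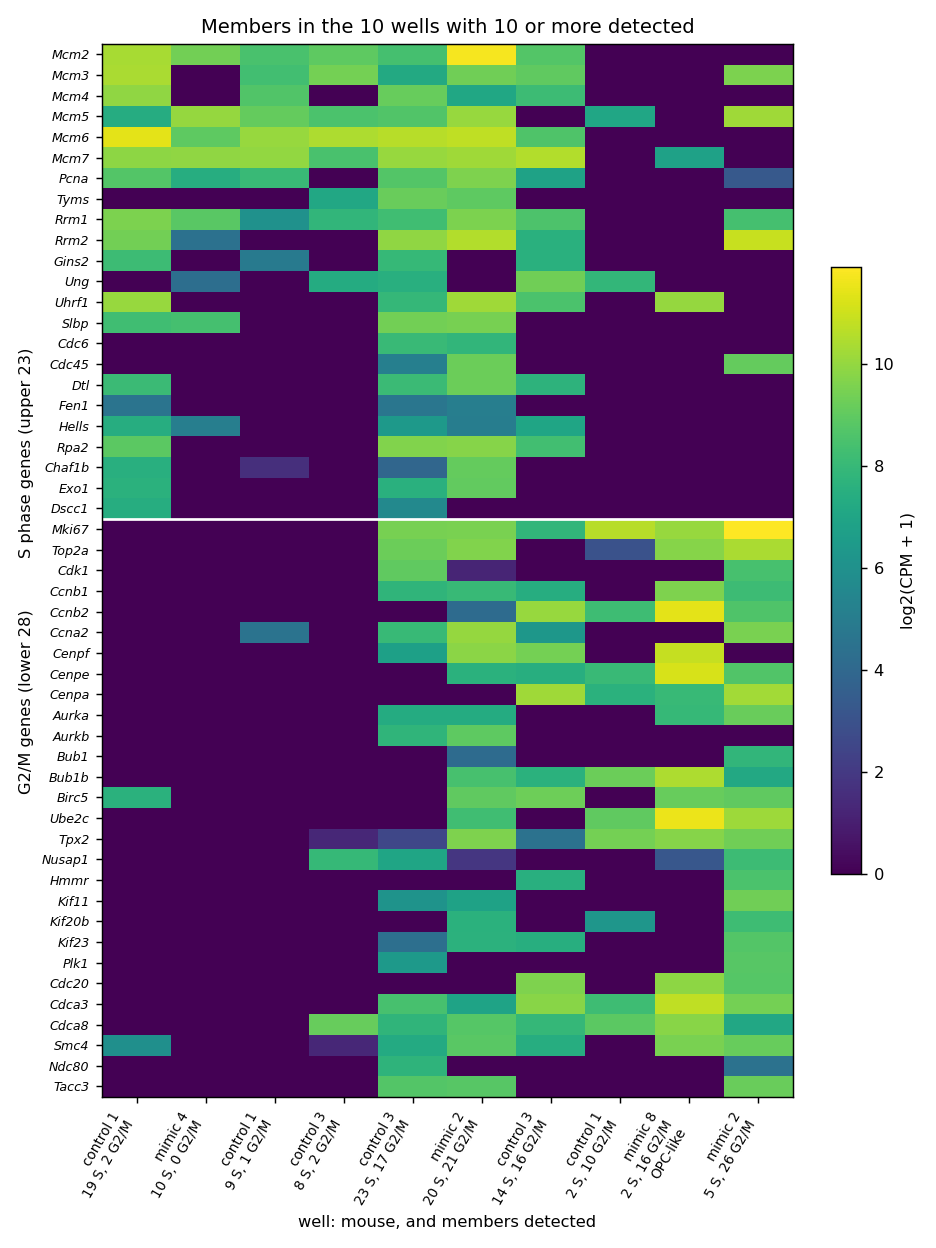
Level of each member as log2(CPM + 1) in the 10 wells with 10 or more members, S phase genes above the white line and G2/M genes below. Columns run from wells with mostly S phase members (19 S and 2 G2/M at the left) to wells with mostly G2/M members (5 S and 26 G2/M at the right); OPC-like marks the oligodendrocyte precursor-like well.

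Helicase genes were detected in most but not all of the S phase wells. Mcm2, Mcm5, Mcm6 and Mcm7 were detected in all 4, while Mcm4 was at 0 in the 10-member wells of mimic mouse 4 and control mouse 3, and Mcm3 in that of mimic mouse 4. Mcm6 stood at 2733 CPM in the 21-member S phase well of control mouse 1, at 1760 and 1565 CPM in the wells of mimic mouse 2 and control mouse 3 with both sets, and at 0 in the 3 wells with mostly G2/M genes. Its partner Mcm2 followed the same wells, with 1289, 3484 and 338.1 CPM, and was also at 0 in those 3. The other helicase genes did not split so cleanly. The 31-member G2/M-rich well of mimic mouse 2 held Mcm5 at 1172 CPM and Mcm3 at 754 CPM, the 12-member well of control mouse 1 held Mcm5 at 132.7 CPM, and the oligodendrocyte precursor-like well held Mcm7 at 112.2 CPM. Rrm2, the small subunit of ribonucleotide reductase, was highest in that same G2/M-rich well at 1894 CPM, above 1506 CPM in the 41-member well of that mouse, 990 and 187.5 CPM in control mouse 3 and 653 CPM in control mouse 1. It was at 0, 0 and 20.5 CPM in the 10-member wells of control mice 1 and 3 and mimic mouse 4. Cdc6, which licenses replication origins, was read in 2 of the 10 wells (227.4 and 270.5 CPM), both of the kind that held both sets.

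Mitotic genes were read in the 3 G2/M-rich wells and the 3 wells with both sets, and summed to 0 to 819 CPM in the 4 S phase wells. That split follows in part from how the wells were named. Mki67, the common marker of proliferation, was at 3840 CPM in the G2/M-rich well of mimic mouse 2, at 1600 CPM in the corresponding well of control mouse 1 and at 1065 CPM in the oligodendrocyte precursor-like well, and at 0 in all 4 S phase wells. In the 3 wells with both sets it was at 740, 705 and 225.5 CPM. Ccnb2, a mitotic cyclin, was detected in 5 wells of the 659 and all 5 were among the 10. Its values were 2716 CPM in the oligodendrocyte precursor-like well, 1087 CPM in control mouse 3, 391 and 17.2 CPM in mimic mouse 2 and 297.3 CPM in control mouse 1. Ube2c, whose product tags mitotic cyclins for destruction, reached 2995 CPM in the oligodendrocyte precursor-like well and 1163 CPM in the G2/M-rich well of mimic mouse 2. Birc5, a subunit of the chromosomal passenger complex, was detected in the 21-member S phase well at 196.7 CPM and in 4 other wells at 503 to 622 CPM. Plk1, a mitotic kinase, and Aurkb, the kinase of the passenger complex, were each detected in 2 of the 10 wells and in no other well.

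Per kilobase of exon, the highest mean levels over the 10 wells were 294.4 CPM per kb for Ccnb2, 201.1 for Mcm6, 191.5 for Ube2c, 189.5 for Rrm2 and 161.1 for Mcm7. Mki67, with its long transcript, stood at 81.3 CPM per kb. The lowest were Fen1, a flap endonuclease, at 3.31 and Ndc80, a kinetochore protein, at 3.60 CPM per kb. Single wells weighed on the highest means. The oligodendrocyte precursor-like well held Ccnb2 at 2716 CPM and Ube2c at 2995 CPM, against 10-well means of 451 and 498 CPM.

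**Figure D3:**
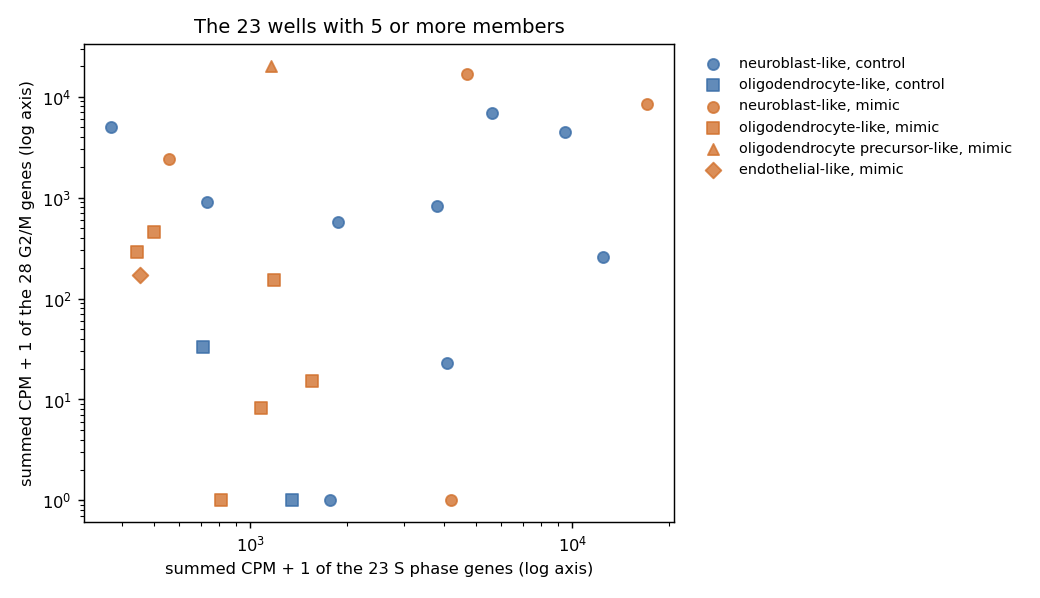
Summed CPM + 1 of the 23 S phase genes (horizontal, log axis) against that of the 28 G2/M genes (vertical, log axis) in the 23 wells with 5 or more members, by class of well and treatment. The oligodendrocyte precursor-like well is the highest on the vertical axis (20266 CPM) and the 41-member well of mimic mouse 2 the farthest right (17079 CPM); the 8 oligodendrocyte-like wells lie at the lower left.

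Members that rise at different times of the cycle are known to differ in promoter sequence: E2F factors act on many S phase genes, and a complex that binds the cell cycle homology region, together with NF-Y on nearby CCAAT boxes, acts on many G2/M genes. RefSeq windows from 250 bases before to 50 after the start (build GRCm38.p6) were matched by symbol to 43 of the 51 members, 19 of S phase and 24 of G2/M. A window holding an E2F word (TTTCGCGC, TTTGGCGC, TTTCCCGC or TTTGCCGC, either strand) was found for 8 of 19 S phase genes (42.1%) and 1 of 24 G2/M genes (4.17%), Cdk1, against 2.61% of 27025 genes in the table. A homology region word (TTTGAA or TTCGAA, either strand) was found for 19 of 24 G2/M genes (79.2%) and 4 of 19 S phase genes (21.1%), against 21.7% of all genes. CCAAT on either strand was found for 79.2% of G2/M and 68.4% of S phase genes, against 41.1% of all genes. E2F words on opposite strands can overlap each other, and a match is a description of letters only.

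The stretches below run from 160 bases before to 30 bases after the start, 5′ to 3′ on the strand of the gene, and show members of each set whose windows hold the words counted above. In the S phase genes capitals mark E2F words: Mcm6 (chr1:128359676-128359865, minus strand), Mcm5 (chr8:75109349-75109538, plus strand), Hells (chr19:38930830-38931019, plus strand), a chromatin remodeller, and Cdc6 (chr11:98907991-98908180, plus strand).
Mcm6: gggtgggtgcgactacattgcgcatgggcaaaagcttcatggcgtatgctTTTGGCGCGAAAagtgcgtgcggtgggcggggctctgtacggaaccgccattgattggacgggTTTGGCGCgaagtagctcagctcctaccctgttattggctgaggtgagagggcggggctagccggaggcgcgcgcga
Mcm5: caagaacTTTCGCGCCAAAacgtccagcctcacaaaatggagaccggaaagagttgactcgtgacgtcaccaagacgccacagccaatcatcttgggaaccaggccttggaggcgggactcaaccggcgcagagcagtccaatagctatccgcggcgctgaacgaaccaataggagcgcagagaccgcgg
Hells: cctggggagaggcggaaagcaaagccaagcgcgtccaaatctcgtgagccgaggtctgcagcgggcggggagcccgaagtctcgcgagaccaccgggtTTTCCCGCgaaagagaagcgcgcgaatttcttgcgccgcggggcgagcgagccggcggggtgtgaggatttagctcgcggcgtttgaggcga
Cdc6: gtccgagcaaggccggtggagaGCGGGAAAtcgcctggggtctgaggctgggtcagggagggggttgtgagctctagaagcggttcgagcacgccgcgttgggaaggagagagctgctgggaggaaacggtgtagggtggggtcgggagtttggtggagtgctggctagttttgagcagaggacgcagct

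In the G2/M genes capitals mark homology region words and CCAAT boxes on either strand: Ccnb2 (chr9:70421525-70421714, minus strand), Cdc20 (chr4:118437314-118437503, minus strand), Cdk1 (chr10:69352883-69353072, minus strand) and Top2a (chr11:99024160-99024349, minus strand). The window of Top2a held 4 homology region words and 6 CCAAT words, the latter joint highest of the 46 member windows with Ube2c.
Ccnb2: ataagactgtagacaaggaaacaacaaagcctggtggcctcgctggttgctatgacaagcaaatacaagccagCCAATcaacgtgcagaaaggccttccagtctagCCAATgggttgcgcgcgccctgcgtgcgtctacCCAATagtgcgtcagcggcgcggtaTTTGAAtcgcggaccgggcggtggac
Cdc20: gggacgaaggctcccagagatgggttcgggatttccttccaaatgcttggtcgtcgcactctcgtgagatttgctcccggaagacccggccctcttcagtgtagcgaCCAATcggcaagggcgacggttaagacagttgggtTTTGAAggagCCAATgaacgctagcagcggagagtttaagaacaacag
Cdk1: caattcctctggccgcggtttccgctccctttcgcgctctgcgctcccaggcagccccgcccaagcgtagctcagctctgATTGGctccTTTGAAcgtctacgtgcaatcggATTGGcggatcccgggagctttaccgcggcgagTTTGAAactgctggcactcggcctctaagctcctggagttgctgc
Top2a: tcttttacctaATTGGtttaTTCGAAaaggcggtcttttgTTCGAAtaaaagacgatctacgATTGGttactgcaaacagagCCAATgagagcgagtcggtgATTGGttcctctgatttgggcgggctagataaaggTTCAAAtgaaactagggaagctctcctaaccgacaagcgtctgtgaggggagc

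The 10 wells, 9 neuroblast-like and 1 oligodendrocyte precursor-like, are set beside the 25 neuroblast-like wells with fewer than 5 members. Of the genes named next the precursor-like well held Sox11 and Slc1a3 alone above 50 CPM. These wells were chosen by their members, and marker genes helped form the clusters, so the values describe and carry no test. Sox11, an early neuronal factor, was above 50 CPM in all 10 wells, and Stmn2, a gene of growing neurites, in none, against 100% and 80% of the 25. Calb2, which marks immature granule neurons, was above 50 CPM in 1 of 10 against 76%, and Neurod1 in 4 of 10 against 92%. Eomes, the defining factor of intermediate progenitors, was above 50 CPM in 6 of 10 against 16%, and Neurog2 in 3 of 10 against none of the 25. Slc1a3, a glutamate transporter of astroglia and progenitors, was above 50 CPM in 9 of 10 (mean 808 CPM) against 48% (198.7 CPM). Hopx, a stem cell marker, passed 50 CPM in no well of the 10, and Aqp4, a water channel of astrocytes, was at 0 in all.

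Single wells carried distinct marker sets. Thrsp, a lipogenesis gene of the stem cell list, was at 1125 and 1780 CPM in the 40-member and 30-member wells of control mouse 3, at 1094 CPM in the S phase well of mimic mouse 4 and at 0 in the other 7. Eomes was highest in that well of mimic mouse 4 at 710 CPM. The 12-member G2/M well of control mouse 1 held none of the 7 intermediate progenitor markers above 50 CPM, and instead Neurod1 at 607 CPM, Tubb3 at 1531 CPM and Igfbpl1 at 527 CPM. The oligodendrocyte precursor-like well of mimic mouse 8 held all 8 precursor markers above 50 CPM, led by the growth factor receptor Pdgfra at 4644 CPM, Olig1 at 2855 CPM and Olig2 at 1970 CPM. The lineage factors Olig1 and Olig2 were at 0 in the other 9. Markers of endothelial cells and of ependymal cells and choroid plexus stayed under 50 CPM in all 10 wells.

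Some other cell cycle genes, which did not choose the wells, were detected in most of the 10, though most genes of those lists were not. Hmgb2, a chromatin protein of dividing cells, was detected in 10 of 10 wells (mean 696 CPM) against 4 of 25 neuroblast-like wells with fewer than 5 members (16.5 CPM). H2afz, a histone variant, was detected in 10 of 10 (1358 CPM) against 21 of 25 (195.4 CPM), and the regulator of cytokinesis Racgap1 in 7 of 10 against 4 of 25. Ccnd2, the D-type cyclin of neural progenitors, was in 9 of 10 wells at a mean of 2198 CPM against 18 of 25 at 379.3 CPM. Its kinases Cdk4 and Cdk6 were each in 9 of 10 wells, against 20 and 11 of 25. Nasp, a histone chaperone, and Dut, which clears dUTP, were each in 7 of 10. Of 30 other S phase genes 8 were detected in at least 5 of the 10 wells, and of 37 other G2/M genes 11 were. The median gene of these lists was detected in 3 and 4 of the 10 wells, against 4% and 0% of the 25. Btg2, an antiproliferative gene of neurogenic divisions, was in 8 of 10 wells (378.2 CPM) against 5 of 25 (35.5 CPM). Of 13 inhibitor and exit genes, Btg2 among them, 4 were detected in at least 5 of the 10 wells. The median gene was detected in 3. The 4 detected in none of the 10 were the inhibitor genes Cdkn1c, Cdkn2a and Cdkn2b, and the retinoblastoma gene Rb1. They were also scarce among the 25, at 1, 0, 0 and 2 wells.

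The 8 oligodendrocyte-like wells with 5 to 7 members held mostly S phase members and kept their class markers. All 8 mature oligodendrocyte markers, Mbp among them, were above 50 CPM in each. Pcna was detected in 7 of 8 wells, Mcm4, Mcm7 and the replication protein Rpa2 in 5 each, and the histone mRNA binding protein Slbp in 4. Mki67 and Top2a were detected in none of them, and their G2/M sums ran from 0 to 451 CPM. Across all oligodendrocyte-like wells, 45.7% of the 659, Pcna was detected in 54.2%, Mki67 in 1 well and Top2a in 0, which allows a share of up to 0.997% by the same limit of 3 wells.

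Some members were detected far beyond the 23 wells and others almost nowhere else. Pcna was detected in 35.2% of the 659 wells, Rrm1 in 94, Mcm7 in 89, Mcm4 in 74, Slbp and Rpa2 in 71 each, the condensin gene Smc4 in 60, Mcm6 in 45, Mcm3 in 36 and Fen1 in 34. These were the 10 members detected most often, and Smc4 was the only G2/M gene among them. At the rare end, Dscc1, Aurkb and Plk1 were each detected in 2 wells, and no member was detected in none. The median G2/M gene was detected in 0.314% of the 636 wells with fewer than 5 members, the median S phase gene in 1.26%. The 10 wells were chosen by their number of detected members, so a high share of member CPM in them is partly built in. They held 63.9% of the summed G2/M CPM of all 659 wells and 23.2% of the summed S phase CPM. By gene that share was 100% for Ccnb2, 99.8% for Top2a and 96.3% for Mki67, and 94.9% for Rrm2, but 4.45% for Pcna, 9.42% for Mcm4 and 11.3% for Rrm1. In the 23 wells with several members, Mcm7 was detected in 16, Pcna in 15, Rrm1 in 12, Mcm4 in 11, Mcm3, Mcm6 and Smc4 in 10 each, Mcm2, Mcm5, Slbp and Rpa2 in 9 each, and Cdca8, another passenger complex subunit, in 8. Counting was not stated to use strand, so reads of Mcm7 (which shares its place with Cops6, Ap4m1 and the Mir25 cluster), Ube2c (Tnnc2), Cdc20 (Elovl1) and other members with overlapping genes cannot be told apart from those neighbours, and Pcna, Tyms, Ccnb1 and Ccnb2 have annotated pseudogenes.

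The share of wells with several members did not pass the test between mimic and control mice. Control mice 1, 3, 5 and 7 had 5 of 87, 4 of 73, 0 of 83 and 2 of 80 wells, and mimic mice 2, 4, 6 and 8 had 2 of 90, 3 of 73, 3 of 84 and 4 of 89. The ranges of the groups overlapped, and control mice held both the highest share and the lowest. The mean share was 3.43% ± 2.72 (SD, n = 4) in control and 3.60% ± 0.993 in mimic mice, a difference of 0.168 percentage points. An exact two-sided permutation test over the 70 splits of the mice gave p = 0.914, where the smallest p it can give is 0.0286, and its 95% interval for the difference ran from -3.50 to 4.45 points. With wells assigned by the sample titles the mimic share was 4.88% and the control share 2.11%, with p = 0.0286 by the same exact permutation test, so the call depends on which label assigns the wells. Under the titles the many-gene wells fall in mice 1, 2 and 6 only, and under the descriptions 2 fall in each mouse.

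Most wells with 10 or more members came from the mice of 17 April. There were 6 in control mice and 4 in mimic mice, namely 3, 3, 0 and 0 in control mice 1, 3, 5 and 7 and 2, 1, 0 and 1 in mimic mice 2, 4, 6 and 8. By date, 9 of the 10 were in the 4 mice of 17 April and 1 in the 4 mice of 19 April. Within 17 April the mean share was 3.78% in the control and 1.80% in the mimic mice, and within 19 April 0% and 0.562%, with 2 mice per value and no test. Neuroblast-like wells numbered 9, 5, 9 and 3 in mice 1 to 4 and 4, 3, 2 and 3 in mice 5 to 8, and their part in the count was not tested. For wells with several members the direction turned between dates: 5.61% control and 3.17% mimic on 17 April, 1.25% and 4.03% on 19 April. Outside the neuroblast-like wells, 2 of the 10 wells with several members were in control mice and 8 in mimic mice, mean shares of 0.711% and 2.51% (exact permutation p = 0.143, chosen after the data were seen).

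**Figure D4:**
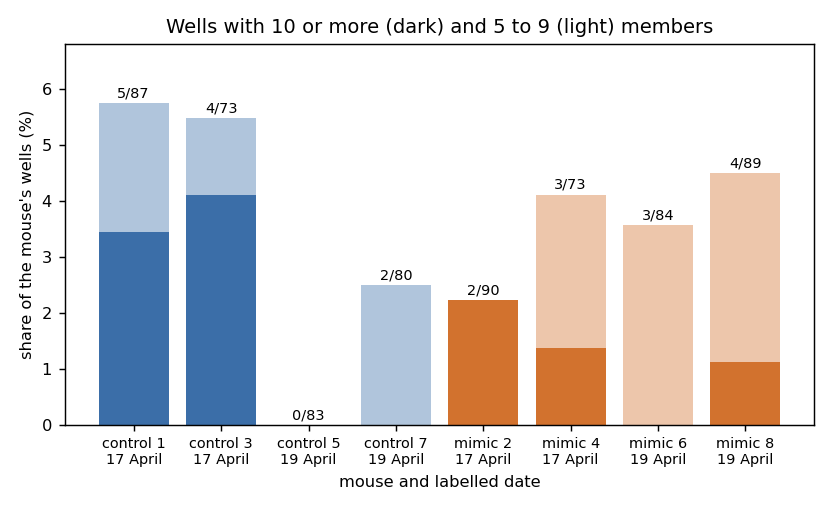
Share of each mouse's wells (vertical axis, percent) with 10 or more members (dark) and 5 to 9 members (light), control mice in blue and mimic mice in orange, with the count of wells with several members over all wells above each bar. Control mouse 5 has 0 of 83 and control mouse 1 the highest share, 5 of 87; the dark parts are mostly in mice of 17 April.

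Counts summed over the wells of each mouse were compared with edgeR's quasi-likelihood test across all genes, with the date as a covariate. None of 8148 genes was called at an adjusted p under 0.05 between mimic and control mice, which is 0% of the genes tested, while 4.38% had an unadjusted p under 0.05 and DESeq2 called 17. Of the 51 members 7 passed the low-count filter, and none was called. A total of 5 of the 7 had a fold above 0 on the log2 scale, with a median of 0.20, where the median over all genes was 0.00.

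Mcm4 was the member whose groups did not overlap. Its level was 45.4, 40.3, 52.9 and 41.02 CPM in control mice 1, 3, 5 and 7 and 38.5, 35.1, 28.6 and 30.7 CPM in mimic mice 2, 4, 6 and 8. Every mimic mouse lay below every control mouse, as for 1.19% of all genes tested. The log2 fold was -0.46 ± 0.29 (SE) with an edgeR adjusted p of 0.999, and it was 0.92 with wells assigned by the titles. Pcna had 83.9, 73.05, 66.9 and 62.9 CPM in the control mice and 80.1, 108.5, 77.3 and 70.5 CPM in the mimic mice, overlapping ranges and a log2 fold of 0.20 ± 0.22. Mcm7 ran from 26.2 to 75.3 CPM in control and from 32.8 to 45.2 CPM in mimic mice, with a log2 fold of -0.37 ± 0.32. Pcna and Mcm7 also changed sign under the titles. Smc4 (0.45 ± 0.56), Rpa2 (0.34 ± 0.49), Slbp (0.25 ± 0.43) and Rrm1 (0.10 ± 0.30) had log2 folds smaller than their SE.

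The many-gene wells gave a separate readout of the same mice, and 3 of the 16 stood apart in the number of members with a count. The labels do not say what these wells hold. Summed over the 2 wells of a mouse, 20, 41, 43 and 47 of the 51 members had a count in mice 1 to 4 and 19, 19, 15 and 17 in mice 5 to 8. The summed counts were 1152163 in mouse 1, 1503513, 1416495 and 1460369 in mice 2 to 4, and 1362399 to 1870032 in mice 5 to 8. In each of mice 2, 3 and 4 the members came mainly from 1 well, the deeper of the pair, and the part of depth was not tested. Those 3 wells held 39, 42 and 47 members, and the other 13 wells held 9 to 18. Their summed G2/M levels were 658, 739 and 939 CPM against 14.4 to 148.9 CPM, and their summed S phase levels 1775, 1646 and 1771 CPM against 227.6 to 504 CPM. Top2a was at 75.2, 149.01 and 82.9 CPM in these 3 wells and at 0 in the other 13. Rrm2 was at 118.7, 128.4 and 133.6 CPM there, at 6.14 CPM in the other well of mimic mouse 4 and at 0 in the remaining 12.

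**Figure D5:**
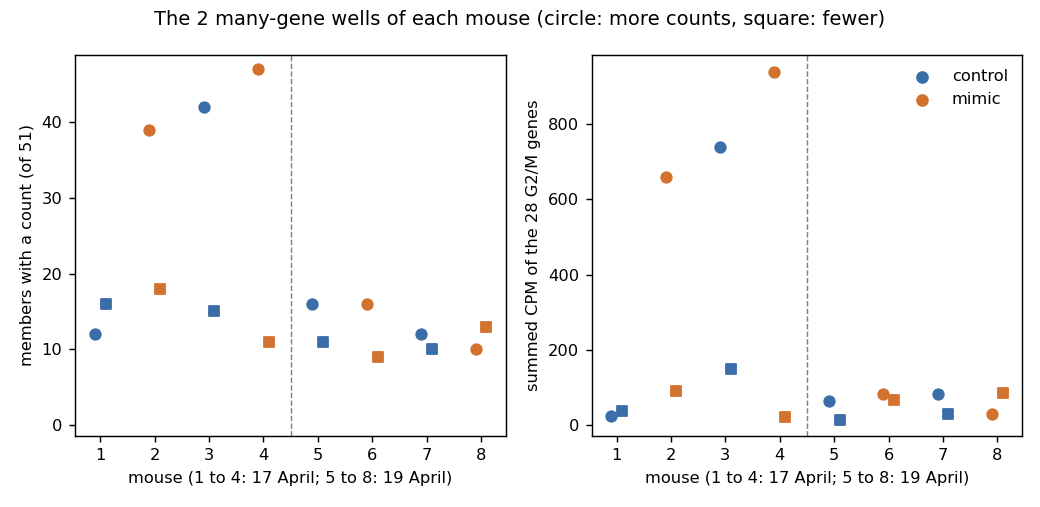
Members with a count (left, of 51) and summed CPM of the 28 G2/M genes (right) in the 2 many-gene wells of each mouse, control mice in blue and mimic mice in orange; circles mark the well with more counts. The circles of mice 2, 3 and 4 lie at 39, 42 and 47 members, and all other wells at 18 or fewer.

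Neuroblast genes differed among these 3 wells. Dcx, a microtubule protein of neuroblasts, was at 0, 20.6 and 43.3 CPM in them and reached 111.2 CPM in a well of mimic mouse 6 with 9 members. Igfbpl1, also of neuroblasts, was at 0, 0 and 160.8 CPM in the 3 wells, the last the highest of the 16. Summed neuroblast markers were at 105.5, 121.1 and 860.7 CPM in the 3 wells and ran from 16.9 to 1374 CPM in the other 13. Oligodendrocyte markers summed to 28014, 60618 and 47757 CPM in the 3 wells and to 40122 to 63961 CPM in the other 13, so the well of mimic mouse 2 lay below all others.

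By treatment, the many-gene wells showed no called difference: edgeR called none of 10996 genes (0%), 2.60% had an unadjusted p under 0.05 and DESeq2 called 11. Of the members 28 passed the filter and none was called, with a median log2 fold of 0.56 against 0.02 for all genes. Cdc20 passed the filter through mimic mice 2, 4 and 8 alone, at 9.31, 32.2 and 9.09 CPM. It was at 2.94 CPM in control mouse 5 and at 0 in the other control mice, so no count of directions is given. The median includes Cdc20 and carries no test. The median was 1.38 without control mouse 3, the control mouse with a member-rich well, and 0.08 without control mouse 1. The 5 members with the highest log2 folds were Cdc20 (3.93 ± 2.23, SE), the chromatin factor Uhrf1 (3.68 ± 1.53), the uracil glycosylase Ung (2.84 ± 2.31), cyclin A2 gene Ccna2 (2.67 ± 2.44) and Mcm5 (2.31 ± 1.59). Uhrf1 was at 0, 14.8, 0 and 0 CPM in control mice 1, 3, 5 and 7 and at 53.9, 58.9, 0 and 11.8 CPM in mimic mice 2, 4, 6 and 8, so the groups overlapped, and its edgeR adjusted p was 1.00. The 5 with the lowest were the kinetochore motor Cenpe (-2.0 ± 1.87), Tyms (-1.53 ± 1.29), the cytokinesis motor Kif23 (-0.84 ± 1.75), Rrm1 (-0.61 ± 0.57) and Rpa2 (-0.17 ± 1.01). For 5 of the 28 members, Mcm6, Cdc45, Cdca8, Gins2 and Kif23, the fold had the opposite sign to the difference of the mean levels, so their direction depends on the measure. Kif23 had means of 4.97 CPM with the mimic against 3.49 CPM. Mcm3 alone had every mimic mouse above every control mouse, at 36.6, 25.3, 25.1 and 21.4 CPM against 14.8, 14.8, 10.3 and 20.4 CPM, as had 1.38% of all genes tested.

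By date, the same fit called 5 of 10996 genes (0.0455%), and none of the 28 members. Of the 28 members 4, namely Dtl, Top2a, Birc5 and Rrm2, were at 0 in all 19 April mice and passed the filter through the 17 April mice alone, so no count of directions is given. Tyms, Mcm7 and Rpa2 had every 19 April mouse below every 17 April mouse after normalisation, as had 1.76% of all genes tested. Mcm7 stood at 51.2, 186.2, 124.96 and 298.6 CPM in mice 1 to 4 and at 55.1, 32.8, 15.01 and 28.3 CPM in mice 5 to 8 before normalisation between mice, where mouse 5 still lay above mouse 1, and its log2 fold was -2.18 ± 0.52 (edgeR adjusted p = 0.426). Control mouse 1, of 17 April, had 20 members with a count, near the 15 to 19 of the 19 April mice. Summed pericyte markers moved with the date too, at 1204 to 3731 CPM in the many-gene wells of mice 1 to 4 and 7408 to 11508 CPM in those of mice 5 to 8, and their part was not tested.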

How the data were processed

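Poly(A) RNA of sorted cells was read by Smart-seq2, per the labels' protocols, and the deposited table holds raw counts per gene and well. The submitters' processing notes name STAR, Subread's featureCounts 1.5.1, Seurat 2.3.1 and build mm10, with the annotation not given in the sources used here. Wells with at least 50000 counts and 1000 to 6000 genes were kept. CPM was computed here from the deposited counts and each well's total. Wells were clustered with scanpy 1.11.5 (2000 variable genes, 20 principal components, 15 neighbours, Leiden resolution 1), leaving out the members and other cell cycle genes. Cells were sorted into wells, and no doublet caller was run. Clusters were named from marker lists. Pdgfra, Cspg4 and E2f1 are among the genes that stand in a pair of lists. Values of some marker genes are not reported here.

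Counts were summed per mouse and tested with edgeR 4.0.16 (quasi-likelihood, TMM, date as covariate, Benjamini-Hochberg) on genes that had a count in 10% or more of the wells and passed filterByExpr, or filterByExpr alone for many-gene wells. The SE given with a log2 fold is the fold's absolute value divided by the square root of the quasi-likelihood F statistic. The edgeR test itself reports no SE. DESeq2 1.42.0 was an alternative. On simulated data with 200 changed genes, the fit over 8148 genes found 18.0% of 2-fold and 90.0% of 4-fold changes, and the fit over 10996 genes 0% and 22.0%. Each mouse was 1 replicate.

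Exon lengths, places and overlapping genes were taken from GENCODE M21, and promoter windows from RefSeq on GRCm38.p6. Members and gene lists were chosen with earlier results of these data known. Values are given for members that passed the filter of the test, the 10 detected in most wells, the 12 detected in most wells with several members, and the 5 highest and lowest log2 folds in many-gene wells. Members named for their values in the 10 wells were chosen after these were seen. Alternatives were the detection limit, the number of members, mitochondrial share, thinning, well assignment, tool, filter, date term and each mouse left out. The comparison between dates, the fits with 1 many-gene well per mouse, and those without the 10 wells or the neuroblast-like wells were chosen after seeing the data.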

Additional observations from a re-analysis of the deposited data

Results flagged for a closer look

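In the many-gene wells, outside the 659 wells, 3 held far more members with a count than any other: 39 in a well of mimic mouse 2, 42 in a well of control mouse 3 and 47 in a well of mimic mouse 4, against 9 to 18 in the other 13. No well without cells was labelled as a control for this count.

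In 48 groups of 4 mice, 8 had a mouse far from the other 3 by Dixon's ratio. Its chance rate of about 1 in 20 does not hold for values that are often at 0 or equal. Where the other 3 mice are equal, any differing value is flagged, so the 8 are not set against that rate. Control mouse 3 stood apart in the many-gene wells with summed S phase genes at 1124 CPM against 286.99 to 396 CPM and summed G2/M genes at 493 CPM against 29.5 to 57.9 CPM. The same mouse had Mcm5 at 54.4 CPM, Ung at 11.3 CPM and Uhrf1 at 14.8 CPM, each against 0 in the other 3 control mice. Control mouse 5 had Ccna2 at 11.7 CPM against 0 to 0.706 CPM, and Cdc20 at 2.94 CPM against 0. Mimic mouse 2 had 5 neuroblast-like wells against 3 in each other mimic mouse. The values share wells, so these are not independent.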

How the results depend on the processing

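The number of wells with several members was 35 with any count, 130 with at least 3 members, 10 with at least 10, 8 with at least 3 G2/M genes, 88 with at least 3 S phase genes and 39 with many-gene wells included. The mimic minus control share turned negative with 50 CPM (-0.185 points), at least 10 members (-0.711), at least 3 G2/M genes (-0.167) and wells thinned to 50000 counts (-0.517), was 2.77 points with wells by titles, and ranged from -0.976 to 0.940 with each mouse left out. DESeq2 called 17 genes in summed wells and 11 in many-gene wells, and no low-count filter gave 81 and 25, with 0 called in every fit that left out a mouse. Between dates, leaving out a mouse gave 0 to 50 genes in summed wells, the 50 without mimic mouse 4, and 3 to 17 in many-gene wells, the 17 without mimic mouse 2, and 0 with either many-gene well of each mouse alone. The cause was not tested.

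Members' log2 folds changed sign with wells by titles for Mcm4 (0.92), Pcna (-0.12) and Mcm7 (0.35). With each mouse left out they ranged from -0.019 to 0.49 for Slbp and -0.079 to 0.27 for Rrm1 in summed wells, and in many-gene wells from -2.15 to 0.051 for Tyms, -2.11 to 0.70 for Kif23 and -0.87 to 0.30 for Rpa2. With the deeper many-gene well alone Kif23 was 0.84 and Rpa2 1.45. The median of the tested members between dates was 0.0045 without the 10 wells. Of the values checked, medians included, 95.2% kept their sign and stayed uncalled. The check covered the members tested in summed wells and, in many-gene wells, only those with the highest and the lowest log2 folds. Whether the sign held for the other members tested in many-gene wells, with folds between these, was not checked. Motif shares of members did not change with 200 bases before the start. The many-gene wells by titles could not be fitted. No paired analysis was possible because control and mimic mice share no replicate number, but permuting within dates alone gave p = 0.889 for the share (exact). On simulated data the test found 18% of 2-fold changes in summed wells and 0% in many-gene wells.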
